A study of Rattus norvegicus with 8 samples.

Results

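Serpinb2, Serpinb3 and Serpinb5 are serine protease inhibitor-type genes of clade B, described here in rat oesophageal neoplasia and in the normal tissue beside it. They were chosen by symbol, as 3 of the 22093 genes that had a probe set with a single gene symbol, and each had 1 probe set. The choice was made with earlier results of the same arrays known, so the levels and differences of these 3 genes are a description and carry no test. Another 16 genes with symbols beginning Serpinb were measured and serve as comparison.

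The study asked how dietary riboflavin, the vitamin from which flavin cofactors are made, bears on gene expression in chemically induced oesophageal neoplasia. All of the rats were injected under the skin with NMBA (N-nitrosomethylbenzylamine), a carcinogen under which the rat oesophagus develops squamous neoplasia, at a dose of 0.35 mg/kg given on 3 occasions a week over 5 weeks, and were killed at week 25. The diet throughout was either riboflavin-normal (labelled RcN+) or riboflavin-deficient (labelled R0N+), so the animals of both diets, and the normal tissue as well as the neoplasia, had been exposed to NMBA. The labels used here state no strain, sex or age. There were 8 arrays, 1 of epithelial neoplasia and 1 of adjacent normal tissue for each of 4 animals (2 on either diet), so n is 2 in every group. The tissue had been fixed in paraformaldehyde and embedded in paraffin before RNA was extracted and amplified. Levels are the deposited log2 values from robust multi-array averaging (RMA), on which a difference of 1 is a doubling of signal.

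Clade B serpins are mostly intracellular members of a family that traps target proteases by a conformational change of an exposed loop. Serpinb2 is plasminogen activator inhibitor 2, which inhibits urokinase and tissue plasminogen activator and is made by keratinocytes and macrophages. Serpinb3 is named after human SERPINB3, squamous cell carcinoma antigen 1, which inhibits papain-like cathepsins and is a marker of squamous epithelium in human tissue. Serpinb5 is maspin, an epithelial serpin that does not work as a protease inhibitor and was first described as a tumour suppressor in human mammary epithelium.

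All 3 genes lie in the clade B cluster on rat chromosome 13, and the 250 bases before each start of transcription are shown because the genes had their highest group mean in the same tissue and diet. The sequences are RefSeq's on build GRCr8, printed 5′ to 3′ in the direction of the gene, with capitals for matches to the AP-1 pattern TGANTCA, the TATA box TATAAA and the GC box GGGCGG. They are chr13:24055771-24056020 on the plus strand for Serpinb2, chr13:23795299-23795548 on the minus strand for Serpinb3 and chr13:23499953-23500202 on the plus strand for Serpinb5.
Serpinb2: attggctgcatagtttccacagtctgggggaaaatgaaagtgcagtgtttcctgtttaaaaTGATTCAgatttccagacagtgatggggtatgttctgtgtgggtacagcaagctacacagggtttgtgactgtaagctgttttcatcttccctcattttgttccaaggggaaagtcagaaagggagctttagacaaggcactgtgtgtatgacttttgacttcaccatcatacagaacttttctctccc
Serpinb3: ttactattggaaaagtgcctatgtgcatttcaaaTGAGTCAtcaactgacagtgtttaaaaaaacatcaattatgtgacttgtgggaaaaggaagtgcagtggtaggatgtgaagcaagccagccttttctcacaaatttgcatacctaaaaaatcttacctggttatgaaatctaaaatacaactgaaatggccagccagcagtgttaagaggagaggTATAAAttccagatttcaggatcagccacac
Serpinb5: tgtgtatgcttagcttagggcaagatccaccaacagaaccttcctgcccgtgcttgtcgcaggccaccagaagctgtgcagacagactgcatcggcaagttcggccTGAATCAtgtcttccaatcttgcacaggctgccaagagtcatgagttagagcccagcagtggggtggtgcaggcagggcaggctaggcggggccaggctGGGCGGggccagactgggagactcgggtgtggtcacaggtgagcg
Both strands were searched, and the 3 patterns were chosen after these sequences had been viewed. The AP-1 pattern begins 189 bases before the start of Serpinb2, 216 bases before that of Serpinb3 and 144 bases before that of Serpinb5. Only the Serpinb3 match has the letters TGAGTCA, the textbook form of the site bound by Jun and Fos proteins. The TATA box was found 31 bases before the start of Serpinb3, and the GC box 45 bases before that of Serpinb5, each in that promoter alone of the 3. Over 33469 promoter windows of the same length from 27457 genes, 6.34% held the AP-1 pattern, 12.9% the TATA box and 30.5% the GC box. Base composition differed as well, with G and C making up 43.2% of the Serpinb2 window, 38.0% of that of Serpinb3 and 60.4% of that of Serpinb5, against a median of 51.2% over all windows. A match describes the letters of a window and does not show that a factor binds there.

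Signal quality limited what these arrays could resolve. The area under the curve by which positive control probe sets stood above negative ones, which is 0.5 for no separation and 1 for a complete one, was 0.577 to 0.757 over the 8 arrays, and the negative controls themselves spread widely, with a 95th percentile between 10.6 and 12.1 and a median between 5.10 and 5.43. Serpinb2 lay above 67.0% to 88.3% of the 1153 negative controls, Serpinb3 above 56.0% to 86.2% and Serpinb5 above 76.8% to 95.8%. Serpinb5 passed the 95th percentile on 1 array, the riboflavin-normal neoplasia of animal 2, and Serpinb2 and Serpinb3 passed it on none. Neighbouring Serpinb3a passed it on 8 of 8 arrays and Serpinb12 on 6. Within the table, Serpinb2 had a mean higher than 93.3% of genes, Serpinb3 higher than 85.5% and Serpinb5 higher than 97.5%.

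The tissue labels were set against marker lists. All 19 measured squamous epithelium markers, among them Krt13, Krt4, Dsg1 and Csta, had means above the median of the table (4.98), as did all 13 skeletal muscle markers, while 5 of 10 macrophage and 6 of 8 neutrophil markers lay below it. The median of the squamous markers was 8.67 and 12.72 in the riboflavin-normal adjacent tissue, 13.71 and 12.50 in the riboflavin-normal neoplasia, 11.98 and 10.20 in the riboflavin-deficient adjacent tissue and 10.43 and 9.85 in the riboflavin-deficient neoplasia. The array of adjacent tissue from riboflavin-normal animal 1 was thus the lowest of the 8 in squamous markers, and it was also the lowest in control separation and in the median of 66 ribosomal protein genes (8.72, against 9.05 to 10.58 on the others). In bulk tissue, fewer cells of a type and less RNA per cell cannot be told apart.

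Across the 4 groups, each of the 3 serpins had its highest mean in the neoplasia of riboflavin-normal animals. Serpinb5 measured 11.26 and 12.04 there, against 7.18 and 9.20 in the adjacent tissue of the same animals, 9.71 and 7.66 in the riboflavin-deficient adjacent tissue and 7.63 and 7.996 in the riboflavin-deficient neoplasia. Both arrays of the first group stood above the other 6, and the other groups overlapped with their neighbours in the order. Serpinb3 measured 6.95 and 8.26 in the riboflavin-normal neoplasia, 5.87 and 6.27 in the matching adjacent tissue, 6.15 and 6.48 in the riboflavin-deficient adjacent tissue and 5.63 and 6.31 in the riboflavin-deficient neoplasia. Here too the first group was clear of the rest, which overlapped one another. How many of all genes had both arrays of this group above the other 6 was not counted. The 3 serpins were chosen with these arrays known, so the shared order is a description.

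The order of Serpinb2 below the top was another. It measured 8.03 and 8.77 in the riboflavin-normal neoplasia, then 7.81 and 7.61 in the riboflavin-deficient adjacent tissue, 6.29 and 7.56 in the riboflavin-deficient neoplasia and 6.69 and 6.57 in the riboflavin-normal adjacent tissue. The second group stood clear of both neighbours, from the third only by the gap between 7.61 and 7.56, and the last pair of groups overlapped.

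**Figure D1:**
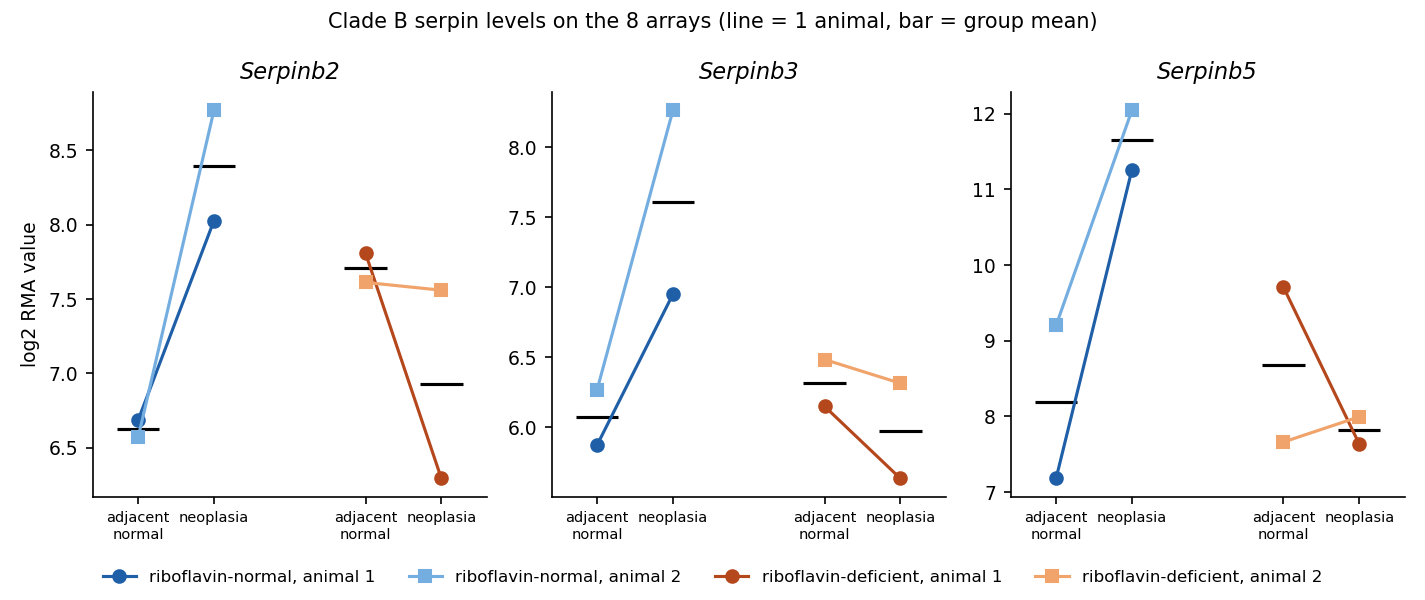
Log2 RMA level of Serpinb2, Serpinb3 and Serpinb5 on each of the 8 arrays, by tissue (horizontal axis) and diet (blue riboflavin-normal, orange riboflavin-deficient), with lines joining the tissues of 1 animal and bars at group means. The vertical axes differ between panels and do not start at 0. The riboflavin-normal neoplasia arrays are the highest in each panel, and the share of all genes with that order was not counted.

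In riboflavin-normal animals, neoplasia was set against the adjacent tissue of the same animal. All 3 serpins were higher in the neoplasia of both animals, with Serpinb5 showing the widest difference. Serpinb5 was higher by 4.07 in animal 1 and 2.84 in animal 2, a fitted log2 difference of 3.46 (SE 0.64, n = 2 pairs). Serpinb2 was higher by 1.34 and 2.20, giving 1.77 (SE 0.42). Serpinb3 was higher by 1.08 and 2.00, giving 1.54 (SE 0.27). The SE comes from the fit, is shared by both diets and is moderated across genes, so it is not the spread of these 2 pairs. No fold is given, since most of these levels lay below the 95th percentile of the negative controls. The wider difference of Serpinb5 came with animal 1, and those of Serpinb2 and Serpinb3 with animal 2. Of all 22093 genes 21.0% were higher in both of these pairs and 17.5% lower in both, and the 3 of 3 serpins are not evidence beyond that, since this contrast was known when they were chosen. In the limma fit across all genes 0.0% were called at an adjusted p under 0.05, with 806 genes at an unadjusted p under 0.05, and the same share, 0.0%, was called in each of the other 5 comparisons.

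Squamous content and array quality differed in the same direction in 1 of the 2 animals. In animal 1 all 19 squamous markers were higher in neoplasia, with a median of the per-gene differences of 3.36, 65 of 66 ribosomal protein genes were higher, with a median of 0.99, and control separation was higher by 0.119. In animal 2, where Serpinb2, Serpinb3 and Serpinb5 were higher by 2.20, 2.00 and 2.84, the squamous markers went both ways, 12 higher and 6 lower, over a range of −1.03 to 2.90 with a median difference of 0.13. Sprr1b (2.90), Csta (2.45), Dsg1 (1.63) and Tp63 (1.03) were the highest among them. The median of the squamous markers on the array itself differed by −0.22, the ribosomal median by −0.43 and control separation by −0.063. Of 13 skeletal muscle markers 12 were lower in the neoplasia of animal 2, with a median difference of −2.03, as were 6 of 6 smooth muscle markers, with −2.59. In animal 1, 5 skeletal muscle markers were higher and 6 lower, between −1.10 and 1.33. The adjacent array of animal 2 was the richest of the 8 in muscle signal, with a skeletal muscle median of 14.48. The part of muscle content in the serpin differences was not tested. With the squamous median of each array as a covariate, an alternative chosen after the data had been seen, the differences were 2.00 for Serpinb2, 1.90 for Serpinb3 and 2.68 for Serpinb5. Beside the animal and neoplasia terms, the 8 arrays left almost nothing from which to estimate the slope. These values therefore cannot show what remains once squamous content is accounted for.

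**Figure D2:**
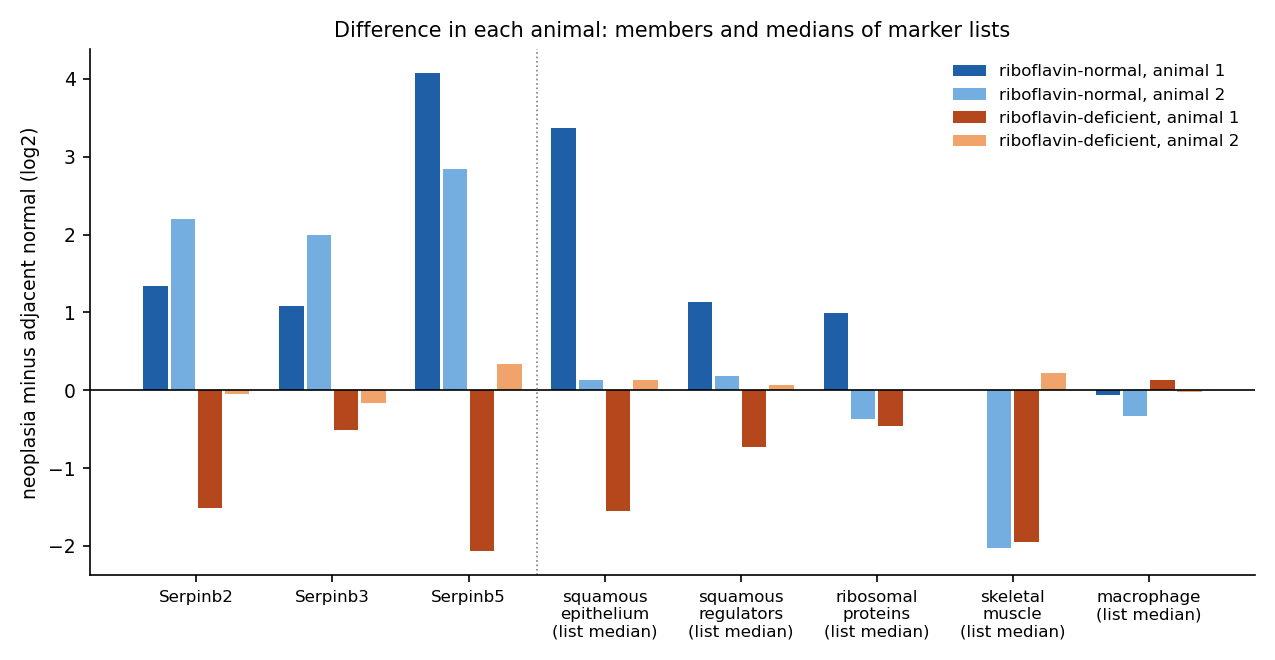
Log2 difference, neoplasia minus adjacent normal tissue, in each of the 4 animals (bars) for the 3 serpins and for the median of the per-gene differences of 5 marker lists. In riboflavin-normal animal 2 the serpins were higher by 2.00 to 2.84, and the squamous markers had a median of 0.13 within a range of −1.03 to 2.90. Markers near the highest value in the table cannot show a rise.

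In riboflavin-deficient animals the same comparison gave differences near 0 or below it. Serpinb2 differed by −1.51 in animal 1 and −0.05 in animal 2, a fitted log2 difference of −0.78 (SE 0.42, n = 2 pairs). Serpinb3 differed by −0.52 and −0.17, giving −0.34 (SE 0.27). Serpinb5 differed by −2.07 and 0.33, giving −0.87 (SE 0.64). Thus 2 of the 3 serpins were lower in both pairs, a pattern that 24.6% of all genes showed, while 24.2% were higher in both pairs. The SE is shared with the normal diet and moderated across genes, so it does not measure the spread between the 2 animals of this diet. The differences were wider in animal 1. Without that animal they were −0.05 for Serpinb2, −0.17 for Serpinb3 and 0.33 for Serpinb5, the last with its sign turned. Without animal 2 they were −1.51, −0.52 and −2.07. In animal 1, 18 of 19 squamous markers and 12 of 13 skeletal muscle markers were also lower in neoplasia, with medians of the per-gene differences of −1.55 and −1.95. In animal 2, 11 squamous markers were higher and 7 lower, with a median of 0.13, and 9 skeletal muscle markers were higher and 4 lower, with 0.22. Ribosomal protein genes were lower in 62 of 66 in animal 1 (median −0.46), where control separation differed by −0.042. In animal 2, 33 were higher and 33 lower, and control separation differed by 0.002. The part of tissue content and array quality in these serpin differences was not tested.

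Over all 4 pairs, none of the 3 serpins was higher in every pair, as 4.1% of all genes were, and none was lower in every pair, as 3.79% were. The fitted log2 differences were 0.49 (SE 0.30, n = 4 pairs) for Serpinb2, 0.60 (SE 0.19) for Serpinb3 and 1.29 (SE 0.45) for Serpinb5. These averages join pairs that point in opposite directions, and they depended on the animals included. Serpinb2 gave 0.28 without riboflavin-normal animal 2, 0.86 without riboflavin-deficient animal 1 and 0.13 without riboflavin-deficient animal 2. Serpinb3 gave 0.37 without riboflavin-normal animal 2, and Serpinb5 gave 0.69 without riboflavin-deficient animal 2.

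The difference between the diets in the neoplasia effect, deficient minus normal, was −2.55 (SE 0.59) for Serpinb2, −1.88 (SE 0.38) for Serpinb3 and −4.33 (SE 0.91) for Serpinb5, with 2 pairs per diet. For all 3 serpins both riboflavin-deficient pairs lay below both riboflavin-normal pairs, which was true of 15.4% of all genes, with 12.9% the other way round. Serpinb2 and Serpinb3 had both normal pairs higher and both deficient pairs lower, which 6.33% of all genes showed. Of the squamous markers 19 of 19 were lower in this contrast by the fit, with a median of −2.32, and 9 of them had the same separation of pairs. Of the ribosomal protein genes 61 of 66 were lower, with a median of −0.51. Their part in the serpin differences was not tested. The comparison shares its arrays with those above and below.

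Within neoplasia, the 3 serpins were lower on the riboflavin-deficient diet. The fitted log2 difference, deficient minus normal, was −3.83 (SE 0.86, n = 2 against 2) for Serpinb5. It was −1.63 (SE 0.46) for Serpinb3 and −1.47 (SE 0.44) for Serpinb2. The arrays of the diets did not overlap for any of the 3, a separation in this direction that 23.2% of all genes showed, with 26.0% separated the other way. Squamous markers were lower with them, 18 of 19 by the fit with a list median of −1.96, against a median of 0.02 over all genes. Ribosomal protein genes were lower in 66 of 66, with a median of −0.85 and 60 without overlap, and control separation was 0.696 and 0.694 on the normal diet against 0.617 and 0.600 on the deficient diet. Smooth muscle (6 of 6), fibroblast and matrix (7 of 7) and skeletal muscle markers (12 of 13) were lower too, with medians of −0.76, −0.24 and −0.70. Neutrophil markers, most of them low in signal, were higher in 8 of 8, with a median of 0.21. Of the macrophage markers 5 were higher and 5 lower. The part of RNA quality and of other cell types in the serpin differences was not tested. With the squamous median as a covariate Serpinb5 gave −2.36. Serpinb2 gave −0.95 after quantile normalisation of the gene table and −0.84 without riboflavin-deficient animal 1, and Serpinb3 gave −0.98 without riboflavin-normal animal 2.

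Within adjacent normal tissue, Serpinb2 alone of the 3 had diet groups that did not overlap. Its arrays measured 7.81 and 7.61 on the riboflavin-deficient diet and 6.69 and 6.57 on the normal diet, a log2 difference of 1.08 (SE 0.44, n = 2 against 2). Of all genes 11.8% were separated in this direction and 8.78% in the other. Serpinb3 differed by 0.25 (SE 0.46) and Serpinb5 by 0.49 (SE 0.86), with overlapping groups. Muscle and fibroblast markers were lower on the deficient diet in this tissue, 13 of 13 for skeletal muscle (median −1.19), 6 of 6 for smooth muscle (−1.66) and 7 of 7 for fibroblast and matrix (−0.94), and 15 of 19 squamous markers were higher (0.36). The part of tissue composition in the Serpinb2 difference was not tested. The value of Serpinb5 turned to −0.52 without riboflavin-normal animal 1 and to −0.53 without riboflavin-deficient animal 1, and it was 1.503 without riboflavin-normal animal 2 and 1.52 without riboflavin-deficient animal 2. Serpinb3 ranged from 0.05 to 0.44 with 1 animal left out. With a covariate Serpinb5 gave 0.79 (ribosomal median) and 0.29 (squamous median).

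The other clade B serpins lie on chromosomes 13 and 17. RefSeq's GRCr8 annotation places Serpinb5, Serpinb12, Serpinb13, Serpinb3a, Serpinb3, Serpinb11, Serpinb7, Serpinb2, Serpinb10 and Serpinb8 in this order on chromosome 13, with the predicted gene LOC120096217, not analysed here, between Serpinb3a and Serpinb3. The other 9 measured genes, from Serpinb6a to Serpinb1a, lie on chromosome 17. In riboflavin-normal animals the 7 other chromosome 13 serpins were all higher in neoplasia by the fit, with a median log2 difference of 0.77, while of the 9 on chromosome 17, 3 were higher and 6 lower, with a median of −0.16. The median over all genes was 0.00. The chromosome 13 values ranged down to those of Serpinb13 (0.19), Serpinb7 (0.09) and Serpinb8 (0.01), and on chromosome 17 Serpinb1a differed by 1.95 (SE 1.03), from pairs of 3.94 and −0.04. On chromosome 17 only Serpinb1a passed the 95th percentile of the negative controls, on 3 arrays, and the others lay above at most 70.3% of them. Of the 7 on chromosome 13, Serpinb12 and Serpinb3a passed it, and the others lay above at most 80.05%. Most genes of both sets were thus low in signal, and the difference between the chromosomes was not tested. Both pairs were higher for 5 of the 7 (Serpinb10, Serpinb11, Serpinb12, Serpinb3a and Serpinb7) and for 1 of the 9 (Serpinb1b), as for 21.0% of all genes. No gene of either set was called by limma.

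Serpinb12 and Serpinb3a, which neighbour members in the cluster, had signals clear of most negative controls. Serpinb12, a serpin described in human tissue as an inhibitor of trypsin-like proteases, measured 9.74 and 13.31 in the riboflavin-normal adjacent tissue and 15.71 and 15.31 in the neoplasia. Its riboflavin-deficient arrays measured 13.58 and 13.02 in adjacent tissue and 9.92 and 12.80 in neoplasia. The neoplasia arrays of the diets did not overlap, and by the fit the gene differed by 3.99 (SE 1.22) with neoplasia on the normal diet and by −1.94 (SE 1.22) on the deficient diet. Serpinb3a, a close paralogue of Serpinb3, measured 11.94 and 14.94 in riboflavin-normal adjacent tissue, 16.08 and 17.28 in the matching neoplasia, 14.80 and 14.35 in riboflavin-deficient adjacent tissue and 12.49 and 14.81 in the matching neoplasia. Its pair differences of 4.13, 2.34, −2.31 and 0.46, in the order of the animals above, were larger than those of Serpinb3 (1.08, 2.00, −0.52 and −0.17). Serpinb3 and Serpinb3a share sequence, and whether signal of one reaches the probe set of the other was not tested.

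The genes beside Serpinb2 differed from each other. Serpinb10, known in human tissue as bomapin and described in blood-forming cells, measured 5.29 and 5.21 in riboflavin-normal adjacent tissue and 6.39 and 7.26 in the neoplasia, a log2 difference of 1.58 (SE 0.39). In riboflavin-deficient animals its pair differences were 0.17 and −1.07. Serpinb7 measured between 4.58 and 5.19 on all 8 arrays and differed by 0.09 (SE 0.19) with neoplasia on the normal diet. Serpinb11, beside Serpinb3, was higher by 0.69 and 0.84 in the riboflavin-normal pairs and differed by −0.35 and 0.41 in the deficient ones. Signals were low, with Serpinb10 above 44.75% to 79.6% of the negative controls, Serpinb7 above 32.3% to 45.5% and Serpinb11 above 66.2% to 80.05%.

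Between diets within neoplasia, all 7 other chromosome 13 serpins were lower on the deficient diet by the fit, with a median of −0.63, and 6 of them had groups that did not overlap, as 23.2% of all genes had in this direction. Serpinb12 had the lowest value among the clade B serpins in this comparison, −4.15 (SE 1.32), followed by Serpinb5. Serpinb3a differed by −3.03 (SE 1.14), Serpinb10 by −1.23 (SE 0.38), Serpinb11 by −0.62 (SE 0.22) and Serpinb8 by −0.60 (SE 0.23). On chromosome 17, 6 of 9 were higher and 3 lower, with a median of 0.14, and the 3 lower ones included Serpinb1a at −2.60 (SE 1.08). Serpinb6a, known in mouse as an intracellular inhibitor, had its widest difference in the adjacent tissue, at −0.49 (SE 0.17). The adjusted p of every one of these differences in limma was at or above 0.851.

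**Figure D3:**
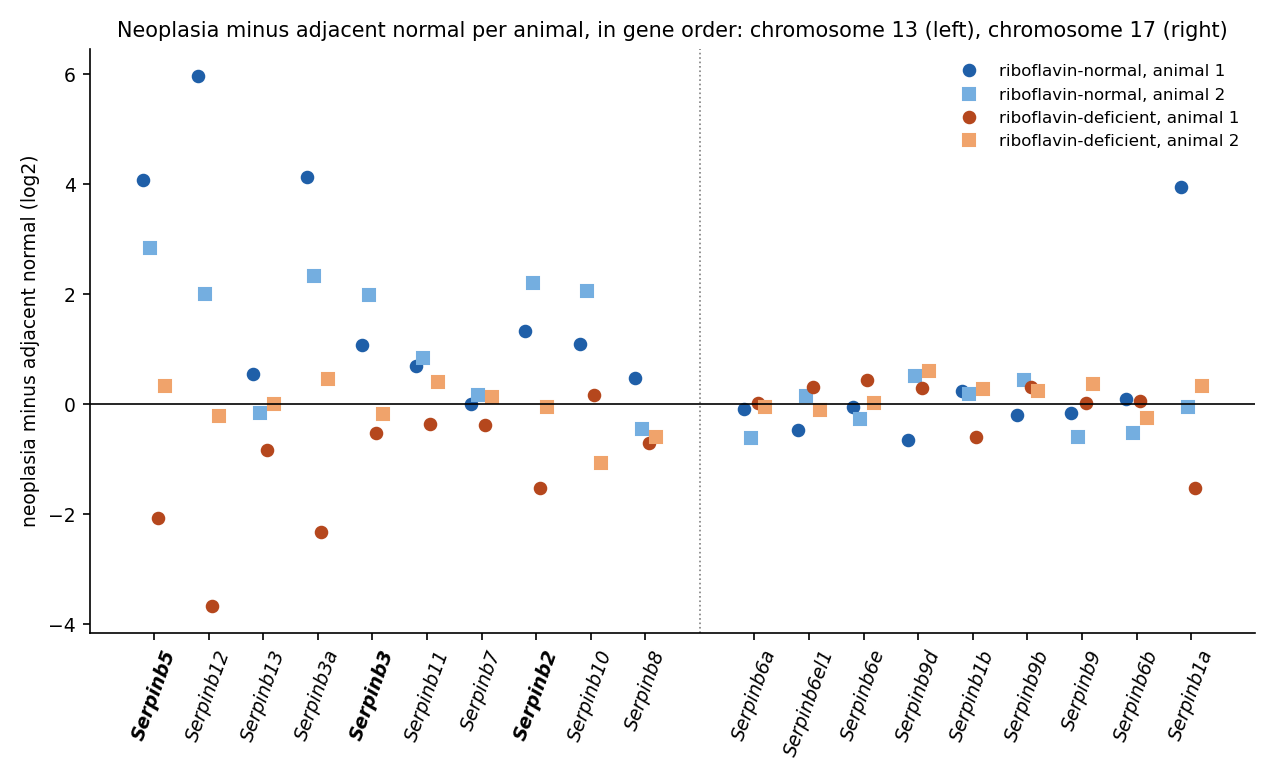
Log2 difference, neoplasia minus adjacent normal tissue, in each of the 4 animals (points) for the 19 measured clade B serpins in genomic order, chromosome 13 left of the dotted line and chromosome 17 right of it, with the 3 described genes in bold. Blue points of Serpinb5, Serpinb12, Serpinb3a, Serpinb3, Serpinb2 and Serpinb10 lie above 1, and on chromosome 17 only Serpinb1a has a value above 1, in riboflavin-normal animal 1.

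**Figure D4:**
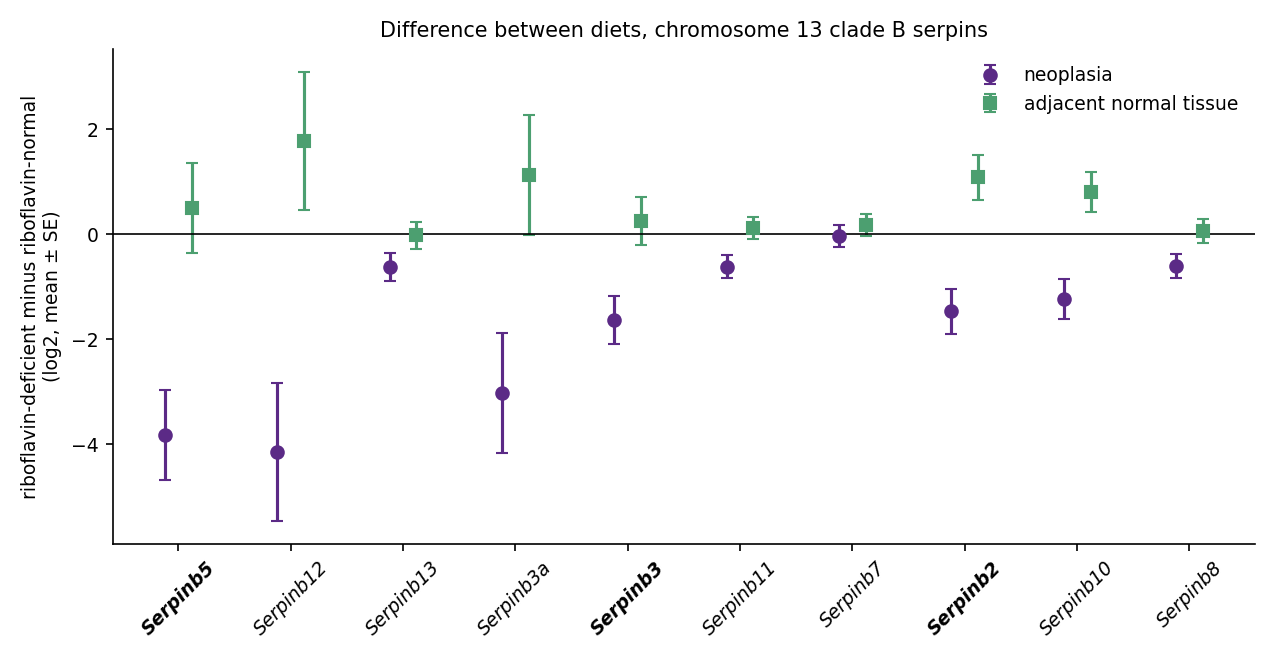
Log2 difference between diets, riboflavin-deficient minus riboflavin-normal (points, with bars for the SE of the fit, n = 2 against 2), for the 10 measured clade B serpins of chromosome 13, within neoplasia (circles) and within adjacent normal tissue (squares). Within neoplasia every value is below 0, and within adjacent tissue Serpinb2 is at 1.08 and Serpinb5 at 0.49.

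The plasminogen system, which holds the proteases that Serpinb2 inhibits together with plasminogen, receptors and other inhibitors, was described by 9 measured genes. On the normal diet 4 were higher and 5 lower in neoplasia, with a median log2 difference of −0.08, and limma called none of them in any comparison. The median level of the list was 5.17 to 5.49 over the arrays, near the negative control medians of 5.10 to 5.43. Much of the list was thus low in signal, and a median difference near 0 does not show unchanged levels. Plau, which encodes urokinase, differed by 0.10 (SE 0.23), Plat, tissue plasminogen activator, by 0.21 (SE 0.24), and Plaur, the urokinase receptor, by −0.08 (SE 0.15). Anxa2, an annexin that with S100a10 binds plasminogen at the cell surface, had a fitted difference of 1.23 (SE 0.98) from pairs of opposite sign, 3.28 in animal 1 and −0.82 in animal 2, and within neoplasia it differed by −2.52 (SE 1.27) between diets, deficient minus normal. S100a10 itself differed by −1.49 (SE 0.53) with neoplasia on the deficient diet. The median of the list between diets within neoplasia was −0.15.

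Papain-like cathepsins, a family of lysosomal proteases some of which human SERPINB3 inhibits, were all 10 measured. On the normal diet 6 were higher and 4 lower in neoplasia, with a median of 0.02, and none was called. Ctsc, which activates granule serine proteases, was higher by 1.22 (SE 0.30), with a difference between diets in the neoplasia effect of −1.48 (SE 0.43). Ctso, another member of the family, differed by −0.41 (SE 0.19) on the normal and 0.44 (SE 0.19) on the deficient diet. Ctsl, cathepsin L, differed by −0.19 (SE 0.55) on the normal diet, from pairs of 0.77 and −1.15.

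Transcription regulators of squamous epithelium mostly had the same signs as the 3 serpins in the fitted averages. Of 13 measured regulators 12 were higher in neoplasia on the normal diet, with a median of 0.62, and 11 were lower on the deficient diet, with a median of −0.31. Both normal pairs were higher for 9 of the 13, as for 21.0% of all genes. Both deficient pairs were lower for 4 of the 13, as for 24.6% of all genes, and in riboflavin-deficient animal 2, 7 were higher and 6 lower. Ehf, an epithelial ETS factor, was higher by 2.24 (SE 0.62) on the normal diet, Klf5, a basal keratinocyte factor, by 1.71 (SE 0.26), Grhl1, a grainyhead factor of desmosome genes, by 1.61 (SE 0.52) and Tp63, the lineage factor of squamous cells, by 1.502 (SE 0.43). Jun, a component of AP-1, differed by 0.62 (SE 0.34) on the normal and −0.88 (SE 0.34) on the deficient diet, and Fosl1, another component, by 0.20 (SE 0.17) and 0.09 (SE 0.17). Within the 4 pairs the per-gene differences of the list had medians of 1.13, 0.18, −0.73 and 0.07, widest in animal 1 of each diet, as for the squamous markers. None of the 13 was called in any comparison.

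The genes most like each serpin over the 8 arrays were ranked by Pearson correlation among 11669 genes. The arrays share animals and the groups differ in level, and the coefficients are a description. Serpinb5 was most like Mfsd5, Hdgf, Npepps and Klf5 (r = 0.99 each) and Daam1 (0.98). Klf5 differed by 1.89 and 1.52 in the riboflavin-normal pairs and by −1.05 and −0.20 in the deficient ones. Serpinb2 was most like Wdr59 (0.96), Plb1 and Bicra (0.94 each), Stx6 and Lypd2 (0.93 each), all with small spans, such as 5.503 to 5.84 for Wdr59. Serpinb3 was most like Abcf2 (0.995), Ift74 and Rps12-ps1 (0.97 each), Abcc4 and Glcci1 (0.96 each). Among themselves the serpins correlated at 0.86 (Serpinb2 with Serpinb3), 0.84 (Serpinb3 with Serpinb5) and 0.76 (Serpinb2 with Serpinb5). Of the genes compared, 11.1% were at least as like Serpinb5 as Serpinb2 was, and 5.44% as Serpinb3 was. From the side of Serpinb2 the shares were 0.37% (Serpinb3) and 1.95% (Serpinb5), and from Serpinb3 1.14% (Serpinb2) and 1.71% (Serpinb5). Serpinb5 was closer to Serpinb11 (0.91) and Serpinb1a (0.90) than to either. The squamous median of the arrays correlated at 0.86 with Serpinb5, 0.54 with Serpinb3 and 0.46 with Serpinb2. No gene was among the 5 most like more than 1 of the 3.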

How the data were processed

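Expression was measured on 8 arrays from 4 animals, which the titles place in 4 groups of 2, and the descriptions give both tissues of an animal the same code. The authors deposited log2 values per probe set. Affymetrix Expression Console and RMA are the tools in the submitters' processing notes. Versions, genome build and scan batches are not given in the sources used here. The table held 70580 probe sets, of which 23446 had 1 symbol in the platform annotation, 505 several, and 46629 none here or a control role. Symbols were updated through Entrez IDs (22077 matched, 1 altered). For 1182 genes with several probe sets the one with the highest mean was kept, leaving 22093 genes. Arrays correlated at 0.916 to 0.974 over these genes. Their number limits the precision.

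Differences were fitted with limma 3.58.1 (lmFit and eBayes) in R 4.3.3 on all 8 arrays, with p-values adjusted by Benjamini-Hochberg over all genes and a threshold of 0.05. Neoplasia was compared with adjacent tissue with animal as a block and a separate neoplasia effect in each diet (2 residual degrees of freedom), and diets with a mean per group (4 residual degrees of freedom). Each SE is from the eBayes variance, which pools all 8 arrays and is moderated across genes, and is not the spread within a single group or diet. The script was tested on simulated data. The members and the marker, protease and regulator lists were chosen with earlier results of these data known. Other clade B serpins were named for the smallest unadjusted p (up to 6) or for flanking a member, and list genes for the smallest p in the comparison (up to 4). Serpinb1a, Serpinb1b, Serpinb13, Plau, Plaur, Ctsl, Jun, Fosl1 and the squamous markers with values were named outside that rule in some comparisons, for their role, their direction or their size, after their values had been seen. Likeness was ranked among genes with 1 symbol that is not a predicted name, a mean no lower than the median of the table and no value at the ceiling of 19.93. Promoters were RefSeq's GRCr8 windows. Alternatives were no animal term, a term for the replicate number of the titles, quantile and cyclic loess normalisation, the mean of a gene's probe sets, the upper part of the genes by mean, an intensity trend, ribosomal or squamous medians as covariates, and leaving out each animal.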

Additional observations from a re-analysis of the deposited data

Results flagged for a closer look

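For Serpinb2, Serpinb3 and Serpinb12 every riboflavin-normal pair was higher in neoplasia and every riboflavin-deficient pair lower, as for 6.33% of all genes. The same 4-pair pattern was seen in 5 of 19 squamous markers (Sprr1a, Sprr1b, Dsg3, Csta and Perp), in 3 of 13 squamous regulators (Klf5, Jun and Ehf) and in 7 of 66 ribosomal protein genes. Csta, for example, differed by 6.03, 2.45, −3.23 and −0.21. The difference between diets in the neoplasia effect, deficient minus normal, was −2.55 for Serpinb2, with pair differences of 1.34 and 2.20 against −1.51 and −0.05. It was −1.88 for Serpinb3, with 1.08 and 2.00 against −0.52 and −0.17. It was −5.93 for Serpinb12 (the probe set with the higher mean of its 2), with 5.97 and 2.00 against −3.67 and −0.22. Serpinb2 and Serpinb3 were chosen with these arrays known, so for them this difference was not tested. For Serpinb12 the limma fit gave an adjusted p of 1.0 for the difference, with 2 pairs in each diet. In riboflavin-deficient animal 2 the differences of all 3 genes were small, −0.05 to −0.22.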

How the results depend on the processing

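No gene was called at an adjusted p under 0.05 by limma in any of the 6 comparisons under any of the 12 alternatives of each, that is 0 genes in 72 refits. Of 216 refits of the members' values, 84 returned the same estimate, as settings such as the block, the intensity trend or the probe set rule must, and are no sign of stability. Of the 132 that moved it, 129 kept the direction, and the 3 that turned all left out an animal, all for Serpinb5. Between diets in adjacent tissue it was −0.52 without riboflavin-normal animal 1 and −0.53 without riboflavin-deficient animal 1, and with neoplasia on the deficient diet it was 0.33 without riboflavin-deficient animal 1. Over the animals left out in turn, these values of Serpinb5 ran from −0.53 to 1.52 and from −2.07 to 0.33. The cause was not tested. The pairing by animal came from the codes in the descriptions, and the deviations of same-animal arrays correlated at 0.188 on the normal and 0.157 on the deficient diet. Without the animal block the differences were identical (1.77, 1.54 and 3.46 for Serpinb2, Serpinb3 and Serpinb5 on the normal diet), their SE was 0.44, 0.46 and 0.86, and 0 genes were called. A replicate block in the diet comparisons, which joins different animals that only share a number, left −1.47, −1.63 and −3.83 within neoplasia and also called 0 genes. Each group held 2 animals, and control probe sets were weakly separated, which limits firm statements on low signals such as Serpinb2 and Serpinb3. On the deficient diet Serpinb5 gave −0.57 after quantile normalisation and −0.56 with the squamous median as a covariate. The covariate fit of the neoplasia effects had almost as many terms as arrays and cannot show what remains beyond squamous content.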
